A study of Mus musculus with 2 samples.

Results

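Long circular RNAs are described here, those whose back-splice junction spans at least 50000 nt of the mouse genome. A circular RNA (circRNA) forms by back-splicing, in which the end of a later exon is spliced to the beginning of an earlier one, and reads across that junction mark it. Members were all circRNAs of the deposited lists with that span, at least 1 junction read and a named host gene. They numbered 754 of the 24894 circRNAs with a junction read and a named host, and they came from 458 host genes. Cells were sorted from the intestine of Lgr5GFP-CreERT2 mice aged 2 months, a strain with GFP and the inducible recombinase CreERT2 under control of Lgr5. The Lgr5+ fraction is labelled ISC and the Lgr5- fraction non-ISC. Each fraction had 1 library. The sources used here do not say whether cells of several animals were pooled. Differences could not be checked in replicates and carry no p-values, and every ratio compares these libraries, not the cell types.

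The library labelled ISC held 156582 junction reads and the library labelled non-ISC 76331, so that 3 reads, the limit that a count of 0 allows, come to 19.2 in ISC and 39.3 in non-ISC per 1000000 junction reads. The libraries went against their labels on the marker genes, counted over all circRNAs of each gene. Of 11 crypt stem cell markers, 4 had reads in the library labelled ISC, against 9 in that labelled non-ISC, with sums of 43 ISC and 188 non-ISC reads, and Lgr5 itself had 0 ISC and 7 non-ISC reads. Of 10 epithelial markers, 1 in ISC and 10 in non-ISC had reads, with sums of 2 ISC and 409 non-ISC reads, and Epcam had 0 ISC and 59 non-ISC reads. Of 11 T lineage markers, 10 in ISC and 6 in non-ISC had reads, with sums of 7169 ISC and 133 non-ISC reads, while Cd3e had 0 in both. ISC and non-ISC beside a value stand only for the libraries so labelled, and the part of these markers in any result below was not tested.

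Back-splicing needs the ends of flanking introns to be brought together, and the genomic span of a circle is set mostly by the introns inside it. Those introns are usually removed, so that the circle itself holds only exons and can be short although its ends lie far apart in the gene. Many circles begin at the second exon of their gene, since the first exon has no acceptor site upstream of it. CircRNAs lack free ends and resist the exonuclease RNase R, with which the RNA of both libraries had been treated.

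The back-splice junctions of the most abundant exonic members show what is joined there: sequence from exons far apart in the genome, in reversed order. Only the ends of a circRNA were given in the lists, so exon counts and spliced lengths here assume every exon of 1 annotated transcript between the ends and were not measured. The sequences below are on the strand of the gene, 5′ to 3′. Lower case marks the end of the last exon of the circle and capitals mark the beginning of its first exon, which follows it only in the circle. They were read from the transcripts of GENCODE release M21 (GRCm38), with 30 bases on each side where the exons are coding and 15 elsewhere. They belong to members among the 5 most abundant of either library, of which Camk4 and Zeb1 are not shown. Ncoa2 spans chr1:13221307-13286025 on the minus strand and joins exon 4 to exon 2. Glcci1 spans chr6:8537817-8591665 on the plus strand and joins exon 7 to exon 2. Tmem164 spans chrX:142752040-142834393 on the plus strand and joins exon 6 to exon 2. Fut8 spans chr12:77277361-77332329 on the plus strand and joins exon 4 to exon 2. Tasp1 spans chr2:139977607-140057499 on the minus strand and joins exon 8 to exon 2. Foxn3 spans chr12:99291237-99388917 on the minus strand and joins exon 4 to exon 2. In all 6, exon 2 supplies the capitals.
Ncoa2: agatcaaagagcaagATTTTCCTCGCATCT
Glcci1: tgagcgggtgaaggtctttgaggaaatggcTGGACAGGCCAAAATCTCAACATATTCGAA
Tmem164: gaaaatagactaaagATCTTCCTCCTGGCC
Fut8: ggctgagtctctccgGTTGCTGTTCTGGCT
Tasp1: caatcaagcgcaaagGTTGACTCCCTTTGC
Foxn3: gagccctcctgcaagGAGCCTTCACGTAAA

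Long circRNAs were a small share of each library and most were thinly covered. The library labelled ISC held 467 of them and the library labelled non-ISC 385. Long circRNAs made up 2.64% (2.40 to 2.88) of circRNAs in the library labelled ISC and 3.35% (3.03 to 3.70) in that labelled non-ISC, with exact binomial 95% intervals. By reads the order of the libraries was the other way round, with 3569 of 153330 junction reads (2.33%, 2.25 to 2.40) in the library labelled ISC and 1624 of 74262 (2.19%, 2.08 to 2.29) in that labelled non-ISC. The median was 2 junction reads per long circRNA in both libraries, the same as for circRNAs under 50000 nt. Those with 1 or 2 reads made up 53.1% in the library labelled ISC and 59.7% in that labelled non-ISC. A few members carried the reads, more so in the library labelled ISC, where the 10 most abundant held 46.3% of long-circRNA reads, against 27.2% in that labelled non-ISC. The deposited lists end at 99947 nt and hold no entry of 100000 nt or more, so still longer circles were not analysed here. Nearest to the minimum of 50000 nt were Ankib1 with a span of 50242 nt (6 ISC and 0 non-ISC reads) and Rnf144a with 50270 nt (1 ISC and 0 non-ISC reads) on the inside, and Gphn with 49995 nt (0 ISC and 2 non-ISC reads) and Smoc2 with 49985 nt (0 ISC and 2 non-ISC reads) on the outside.

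Scaled to the junction totals, long circRNAs as a whole had a ratio of 1.07 (1.01 to 1.14, exact conditional 95% interval), labelled ISC over labelled non-ISC. It was 3.02 when scaled to library totals, 2.64 with the authors' count column in place of junction reads and 1.64 with a minimum span of 40000 nt. The count column was scaled to its totals over all entries, of which a single entry held 79.1% in ISC and 25.5% in non-ISC. Among circRNAs with junction reads and a named host, long ones held 5.61% of counts in ISC and 5.42% in non-ISC. The value of 1.07 also rested on 1 host gene. Without Zeb1, which held 611 ISC and 11 non-ISC reads, the ratio was 0.894 (0.841 to 0.950), and without Zeb1 and Camk4 it was 0.811. CircRNAs under 50000 nt had a ratio of 1.01 (0.996 to 1.01). Across spans the ratio did not move in 1 direction. It was 1.33 from 50000 to 59999 nt, 0.802 in the next bin of the same width, 1.73 from 70000 to 79999 nt, where the leading circRNA of Zeb1 lies, and 0.748 from 80000 to 89999 nt. The bin from 90000 to 99999 nt had 106 reads in the library labelled ISC, against 125 in that labelled non-ISC, a ratio of 0.413 (0.316 to 0.540). Within the long circRNAs span was hardly related to abundance, with a Spearman rho between span and summed reads of -0.03 over all 754, which share their libraries.

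At least 10 reads over both libraries were found for 93 long circRNAs, of which 33 (35.5%, 25.8 to 46.1) were higher and 26 (28.0%, 19.1 to 38.2) lower in the library labelled ISC. Calls required at least a 2-fold difference, with 1 outside the interval. The background over all 3659 circRNAs with as many reads was 32.4% higher and 23.0% lower, which lie inside both intervals, so the shares of long circRNAs called were near the background. The split depends on the scaling: with the total reads of each library, as the deposited RPM implies them, 46 were higher and 10 lower. The median log2 ratio was -0.09 over the long circRNAs and 0.34 over all circRNAs tested, with 0.5 read added to each count. With counts of 0 set to 3 reads the medians were -0.04 over the long circRNAs and 0.40 over all. Most calls in the higher direction set reads against none: 27 of the 33 had no junction reads in the library labelled non-ISC. Of these 27, 21 had no entry there and the other 6, in Arhgap10, Celf2, Diap3, Fam188a, Gsk3b and Jarid2, were listed with 0 junction reads. In the lower direction 9 of the 26 had no reads in the library labelled ISC. Among circRNAs under 50000 nt, 737 of 1124 higher calls and 303 of 792 lower calls likewise had no reads in the other library. A missing entry need not be 0 reads, so such circRNAs are given below as reads, with no fold.

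**Figure D1:**
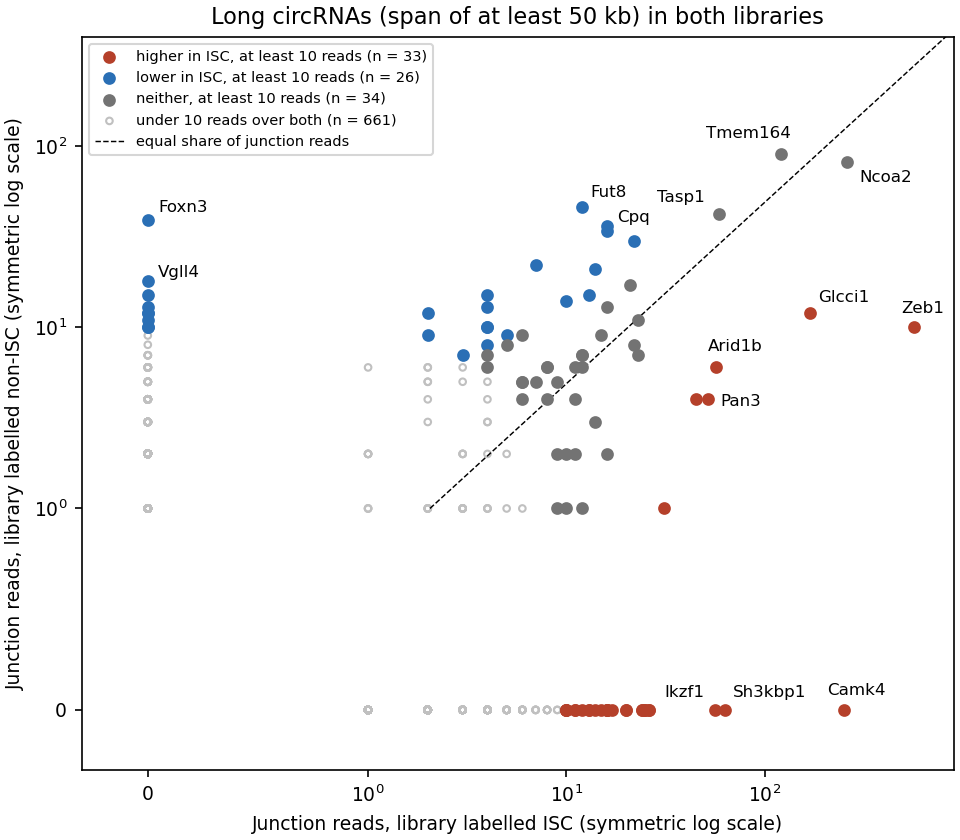
Junction reads of each of the 754 long circRNAs in the library labelled ISC (horizontal) and labelled non-ISC (vertical), both on symmetric log axes that include 0. Filled points have at least 10 reads over both libraries and are coloured by call (33 higher, 26 lower, 34 neither), open points have fewer, and the dashed line marks an equal share of each library's junction reads. Zeb1, Camk4 and Glcci1 lie far to the right and below the line, Foxn3 and Vgll4 on the left edge at 0 reads in the library labelled ISC.

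Chromatin and transcription regulators held the most long-circRNA reads of the 10 role lists. Of 128 listed genes, 116 had a circRNA and 37 a long one, with 1307 reads in the library labelled ISC, against 275 in that labelled non-ISC. Of 11 hosts with at least 10 long reads, 6 were higher and 1 lower, and their median log2 ratio was 1.48 with 0.5 read added and 0.70 with counts of 0 set to 3 reads. Over all 91 hosts of long circRNAs with enough reads the medians were -0.25 with 0.5 read added and -0.19 with 0 set to 3 reads. Of those 91 hosts 26 were higher and 27 lower, beside a background of 26.6% higher and 22.5% lower among 2867 host genes on all their circRNAs. With library totals 39 hosts were higher and 17 lower. Zeb1 encodes a zinc finger repressor known for its part in epithelial to mesenchymal transition and in T cell development. Its leading long circRNA lies at 5633204 to 5705243 of chromosome 18 and had 564 reads in the library labelled ISC, against 10 in that labelled non-ISC, a ratio of 27.5 (14.8 to 57.6). It was the most abundant long circRNA of the library labelled ISC and alone held 15.8% of its long reads. Its ends lie on exon ends of different annotated transcripts of Zeb1, not of a single one. Of the 8 long circRNAs of Zeb1, 6 end at the same coordinate, and the next in reads (5641382 to 5705243, exons 2 and 3 of a short transcript) had 26 ISC and 0 non-ISC reads.

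Ncoa2, a coactivator of nuclear receptors, gave the second most abundant long circRNA of both libraries. Its circRNA of exons 2 to 4 had 259 reads in the library labelled ISC, against 82 in that labelled non-ISC, a ratio of 1.54 (1.20 to 2.00), short of a 2-fold difference. Some other long circRNAs of this list were less even. Arid1b, a subunit of the BAF chromatin remodelling complex, gave 57 ISC and 6 non-ISC reads on a circRNA of exons 2 to 4 (chromosome 17, 5040580 to 5127024), a ratio of 4.63 (2.00 to 13.1). Jarid2, a partner of the Polycomb repressive complex PRC2, had 10 ISC and 0 non-ISC reads on a circle of 2 exons, 340 nt in all, drawn from 91803 nt of chromosome 13. Foxn3, a forkhead repressor, went the other way. It had 0 ISC and 39 non-ISC reads on a circle of exons 2 to 4 that spans 97681 nt, the longest span among members with at least 10 reads.

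Rere, which encodes a nuclear corepressor of the atrophin family, showed that long circRNAs of 1 host can go in opposite directions. It had 9 of them, with summed reads of 89 in the library labelled ISC and 43 in that labelled non-ISC and a ratio of 1.01 (0.694 to 1.49). Circles that begin at exon 2 were mostly from the library labelled ISC. Exons 2 to 6 had 45 ISC and 4 non-ISC reads, exons 2 to 8 had 13 ISC and 0 non-ISC reads, and exons 2 to 7 had 11 ISC and 4 non-ISC reads, which is a ratio of 1.34 (0.397 to 5.77). Circles that begin at exon 4 were not. Exons 4 to 8 had 4 reads in the library labelled ISC, against 10 in that labelled non-ISC (ratio 0.195, 0.0446 to 0.676), exons 4 to 10 had 8 ISC and 6 non-ISC reads, and exons 4 to 11 had 2 ISC and 5 non-ISC reads. The grouping by first exon was noticed in these values and was not tested.

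The T lineage and other immune genes had 14 hosts of long circRNAs of 68 listed, with 481 reads in the library labelled ISC, against 28 in that labelled non-ISC. Of 7 with enough reads 5 were higher and 0 lower, with a median log2 ratio of 3.49, or 1.29 with 0 set to 3 reads. This stands beside the T lineage markers that are high in the same library over all circRNAs. The values are in part the same reads: Camk4 and Ikzf1 are in both lists, with 275 and 106 long ISC reads. Both lists were also chosen with earlier results of these data known, so they do not back each other. Camk4, a calcium and calmodulin dependent kinase known from T cells and neurons, counts here and among the kinases. At 33077993 to 33129833 of chromosome 18, its circRNA of exons 2 to 5 had 251 reads in the library labelled ISC and was not listed for that labelled non-ISC. The host had no circRNA read of any span in the library labelled non-ISC, and 96.2% of its 286 reads in the library labelled ISC were on long circRNAs. Ikzf1, which encodes the lymphoid regulator Ikaros and also counts among the transcription regulators, had 5 long circRNAs with 106 ISC and 0 non-ISC reads. They start at exon 2 in 3 of the 4 with at least 10 reads and run to exons 4, 5 and 6, with 17, 16 and 56 ISC reads. Foxp1, a forkhead factor, had the most long circRNAs of any host, 11, but only 24 reads in the library labelled ISC, against 23 in that labelled non-ISC, a ratio of 0.509 (0.275 to 0.943), which is short of a call. Themis, needed for thymocyte selection, had 10 ISC and 0 non-ISC reads on exons 2 to 4.

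Protein kinases and phosphatases had 17 hosts, with 353 reads in the library labelled ISC, against 24 in that labelled non-ISC. Camk4, already counted among the immune genes, alone held 275 of the 353 ISC reads. Of 4 with enough reads 2 were higher, Camk4 and Gsk3b, and 0 lower, with a median log2 ratio of 2.13, or 0.84 with 0 set to 3 reads. Gsk3b, a kinase of the Wnt and insulin pathways, had 27 ISC and 0 non-ISC reads on long circRNAs. Stk39 had 12 ISC and 8 non-ISC reads and was not called. Arhgap10, a GTPase-activating protein, had 28 ISC and 0 non-ISC reads and Ralgps1, an exchange factor for Ral, 20 ISC and 0 non-ISC reads. Arhgap15, another GTPase-activating protein, had 16 ISC and 2 non-ISC reads. Among the hosts named here, the library labelled non-ISC had at most 2 long reads in each of Camk4, Gsk3b, Arhgap10, Ralgps1 and Arhgap15. The list of kinases and phosphatases had 24 there, over 7 hosts. Stk39 was more even, with a ratio of 0.731 (0.275 to 2.06).

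The epithelial and adhesion lists had more long reads in the library labelled non-ISC, with few hosts tested. Of 64 intestinal epithelial genes, 56 had a circRNA and 13 a long one, 2 in the library labelled ISC and 11 in that labelled non-ISC, with 0 in both. Of all 458 hosts of long circRNAs, 115 had long reads in both libraries. The 13 epithelial hosts had 2 ISC and 40 non-ISC long reads, so few that their overlap cannot be judged. The 1 epithelial host with enough reads, Atp9a (0 ISC and 17 non-ISC reads), was lower. Atp9a, a P4-type ATPase of endosomes, had 11 of its 17 reads on a circle of exons 2 to 27, 26 exons and 2939 nt in all. Heph, a ferroxidase of enterocytes, had 0 ISC and 6 non-ISC reads and Dclk1, a marker of tuft cells, 0 ISC and 3 non-ISC reads. Adhesion, polarity and junction scaffolds had 15 hosts with 24 reads in the library labelled ISC, against 59 in that labelled non-ISC. All 3 with enough reads were lower, with a median log2 ratio of -3.06, or -2.91 with 0 set to 3 reads. Inadl, the polarity scaffold Patj in the annotation, had 9 long circRNAs with 6 ISC and 26 non-ISC reads, of which the leading one (exons 15 to 25) had 2 ISC and 12 non-ISC reads. Ptprd, a receptor phosphatase, had 4 ISC and 8 non-ISC reads. The third, Vmp1, with 0 ISC and 11 non-ISC reads, encodes a membrane protein known from autophagy rather than a scaffold. The epithelial markers, with sums of 2 ISC and 409 non-ISC reads over all circRNAs, had their higher sum in the same library as these lists. Of these markers 2 had a long circRNA, so some reads may be counted in both. The lists and the markers were also chosen with earlier results of these data known, so they do not back each other.

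The remaining lists had mixed or few host calls, while the summed reads of membrane traffic and ubiquitin genes were lower in the library labelled ISC when scaled to junction totals. Library totals raise every log2 ratio by 1.49, and the summed ratio of membrane traffic would then no longer lie below 1. Genes of mRNA decay, RNA binding and splicing had 18 hosts with 130 reads in the library labelled ISC, against 53 in that labelled non-ISC, and of 6 with enough reads 2 were higher and 2 lower, with a median log2 ratio of 0.18, or 0.25 with 0 set to 3 reads. Pan3, a subunit of a poly(A) deadenylase, had a single long circRNA (chromosome 5, 147450653 to 147503202) with 52 ISC and 4 non-ISC reads, a ratio of 6.34 (2.33 to 24.1). It too joins exon ends of different transcripts. Atxn7, which is a subunit of the SAGA complex, had 23 ISC and 7 non-ISC reads. Membrane traffic had 18 hosts, 11 of them with long reads in both libraries, against 115 of all 458 hosts of long circRNAs. It had 57 ISC and 71 non-ISC reads, a summed ratio of 0.391 (0.271 to 0.562). Of 3 hosts with enough, Tbc1d5 (13 ISC and 9 non-ISC reads), Gphn (12 ISC and 10 non-ISC reads) and Tbc1d14 (10 ISC and 12 non-ISC reads), 0 were called, with a median of -0.79, or -0.77. Very large genes at common fragile sites had only 8 hosts, with 22 ISC and 19 non-ISC reads, of which Dpyd (0 ISC and 11 non-ISC reads) was lower and Fars2 (12 ISC and 1 non-ISC read) was not called. Exoc4 had 7 ISC and 1 non-ISC read. The median of its 2 tested hosts was -1.77, or -0.18. Ubiquitin ligases and deubiquitinases had 8 hosts with 10 ISC and 21 non-ISC reads, a summed ratio of 0.232 (0.0976 to 0.515). The 1 tested, Fbxw11, an F-box protein of an SCF ligase, was lower at 0 ISC and 13 non-ISC reads. Usp6nl, a GTPase-activating protein for Rab GTPases rather than either kind of enzyme, had 5 ISC and 3 non-ISC reads, and Znrf3 0 ISC and 2 non-ISC reads.

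Most hosts lay outside these lists, 315 of 458, with 1565 reads in the library labelled ISC, against 1059 in that labelled non-ISC. Of 55 with enough reads 12 were higher and 18 lower, with a median log2 ratio of -0.49, or -0.45 with 0 set to 3 reads. Glcci1, a glucocorticoid-induced transcript, had 170 ISC and 12 non-ISC reads on exons 2 to 7, a ratio of 6.91 (3.85 to 13.6). Tmem164, a transmembrane protein, was the most abundant long circRNA of the library labelled non-ISC, with 121 reads in the library labelled ISC, against 90 in that labelled non-ISC, a ratio of 0.655 (0.495 to 0.871). Tasp1, a protease that cleaves MLL proteins, was also well covered in both, with 59 ISC and 42 non-ISC reads and a ratio of 0.685 (0.453 to 1.04). Sh3kbp1, an adaptor in receptor endocytosis, had 63 ISC and 0 non-ISC reads on exons 3 to 5. Prim2, a subunit of DNA primase, had 26 ISC and 0 non-ISC reads. The uncharacterised gene 2610307P16Rik had 9 long circRNAs with 59 ISC and 0 non-ISC reads, the leading 2 with 25 and 20 ISC reads.

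On the lower side Fut8, which adds core fucose to N-glycans, had 12 reads in the library labelled ISC, against 46 in that labelled non-ISC on exons 2 to 4, a ratio of 0.127 (0.0613 to 0.244). A longer circle of Fut8 with the same start (exons 2 to 6, 87999 nt) had 4 ISC and 13 non-ISC reads and the like ratio of 0.150 (0.0356 to 0.486). Cpq, a carboxypeptidase, had 16 ISC and 36 non-ISC reads (ratio 0.217, 0.112 to 0.401), Stau2, which binds double-stranded RNA, 22 ISC and 30 non-ISC reads (0.357, 0.196 to 0.641), and Ctbp2, a transcriptional corepressor, 16 ISC and 34 non-ISC reads (0.229, 0.118 to 0.427). These genes were covered in both libraries. Eri3, of an exoribonuclease family, had 7 ISC and 22 non-ISC reads (0.155, 0.0560 to 0.376), and Dtnb, a dystrobrevin, 14 ISC and 21 non-ISC reads (0.325, 0.153 to 0.670). Scaled to library totals Stau2 had a ratio of 1.01, and Cpq (0.610), Ctbp2 (0.646), Eri3 (0.437), Dtnb (0.915) and the longer circle of Fut8 (0.422) were no longer called. The others furthest from an equal share had no entry in the library labelled ISC. They were Vgll4, a cofactor of TEAD factors, with 18 reads in the library labelled non-ISC, Agmo, an ether lipid monooxygenase, with 15, Cers6, a ceramide synthase, and Ate1, an arginyltransferase, with 12 each, and the bicarbonate cotransporter Slc4a4 and the splicing-related Rsrc1 with 10 each. The longest circles of all were near the detection limit: Tll1 with 99941 nt had 2 ISC and 0 non-ISC reads, and Erc1 with 99947 nt had 0 ISC and 1 non-ISC read.

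**Figure D2:**
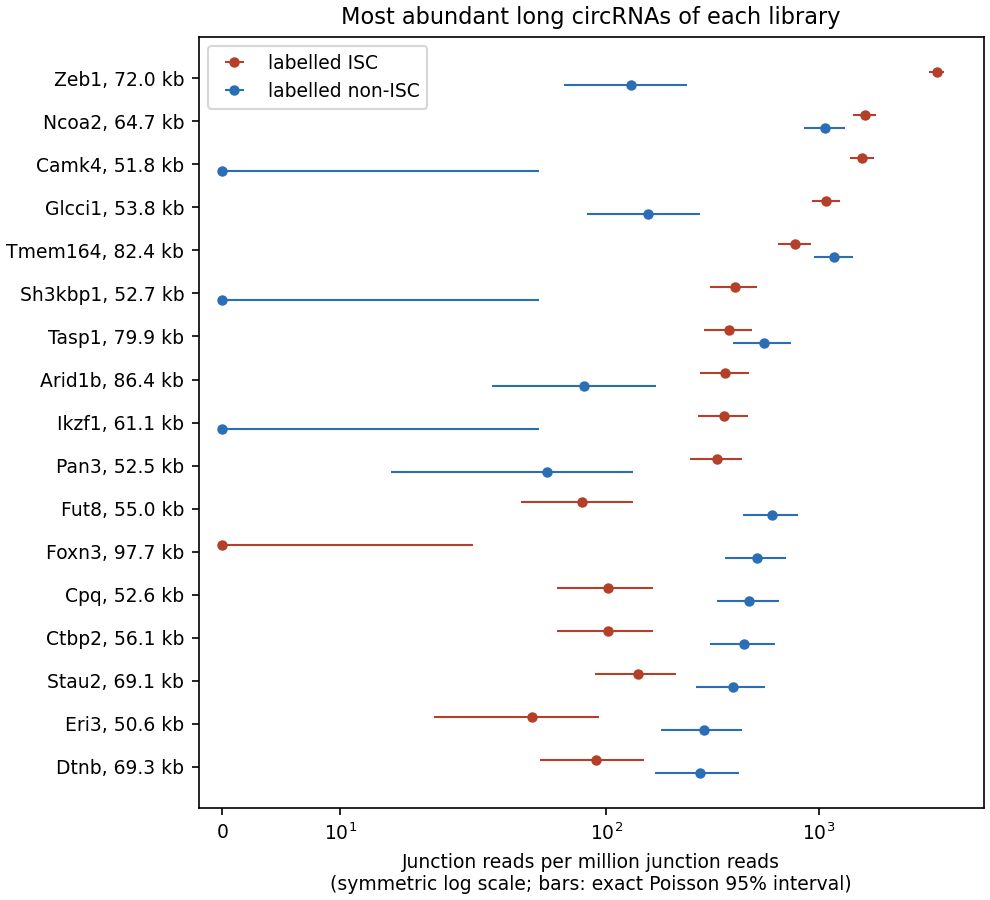
Junction reads per 1000000 junction reads (symmetric log scale) of the 17 long circRNAs that are among the 10 most abundant of either library, with the library labelled ISC in red and labelled non-ISC in blue and exact Poisson 95% intervals as bars. Names give the host gene and the genomic span. Ncoa2, Tmem164 and Tasp1 are high in both libraries, while Zeb1, Camk4 and Glcci1 are far higher in the library labelled ISC and Foxn3 and Fut8 in that labelled non-ISC.

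Fewer long than shorter circRNAs were shared between the libraries when all read numbers were counted together. Of the 754 long circRNAs, 98 (13.0%, 10.7 to 15.6) had reads in both libraries, against 17.4% of circRNAs under 50000 nt. These 98 held 54.8% of long reads in the library labelled ISC, against 51.7% in that labelled non-ISC. With 2 to 4 reads over both libraries 5.26% of long and 6.20% of shorter circRNAs were shared, with 5 to 9 reads 25.8% of long and 32.7% of shorter ones, and with 10 to 19 reads 58.6% of long and 57.9% of shorter ones. With 20 to 49 reads the shares were 57.1% (34.0 to 78.2) of 21 long circRNAs and 77.6% of shorter ones, and with 50 or more 78.6% (49.2 to 95.3) of 14 long and 89.9% of shorter ones. Within each band the share of shorter circRNAs lay inside the interval of the long class, which is wide above 20 reads. Over all circRNAs with at least 10 reads the shares were 61.3% (50.6 to 71.2) of long and 70.3% of shorter ones, the second inside the interval of the first. By host gene, 309 had a long circRNA in the library labelled ISC, against 264 in that labelled non-ISC, of which 115 were the same. A host can be shared through different circRNAs, so its sharing cannot be set against that of circRNAs.

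**Figure D3:**
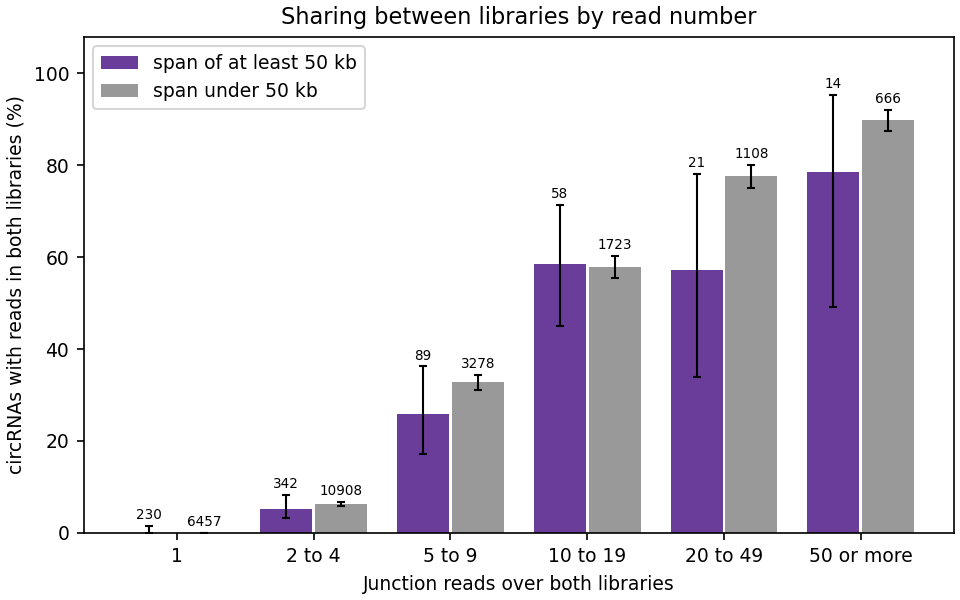
Percent of circRNAs with reads in both libraries, in bands of junction reads summed over both libraries, for spans of at least 50 kb (purple) and under 50 kb (grey). Bars carry exact binomial 95% intervals and the number of circRNAs. Shares are 58.6% for long and 57.9% for shorter circRNAs at 10 to 19 reads and 57.1% for long and 77.6% for shorter ones at 20 to 49 reads.

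Most long circRNAs had ends at annotated exon ends. Both ends of 493 long circRNAs matched exon ends of a single annotated transcript (65.4%, 61.9 to 68.8), against 73.8% of shorter circRNAs, and so did those of 89.2% of the long ones with at least 10 reads. Such exonic long circRNAs held a median of 6 exons (quartiles 4 and 9) and 719 nt after splicing, against 3 exons and 470 nt in shorter ones. The spliced circle was thus a median of 1.08% of the genomic span, against 8.80% in shorter ones, which follows in part from the span rule. None was a single exon, while 4.54% of shorter ones were. The longest intron inside measured a median of 34442 nt, against 3354.5 nt, which that rule also fixes in part. The flanking introns lie outside the span and were long too. Their lengths are still not independent of the rule, which selects long host genes, and shorter circRNAs of equally long hosts were not compared. The intron before the first exon of the circle had a median of 21061 nt, against 4657 nt, and the intron after the last exon 18445 nt, against 3482 nt. No test was made of these differences, since circRNAs of 1 host share introns.

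**Figure D4:**
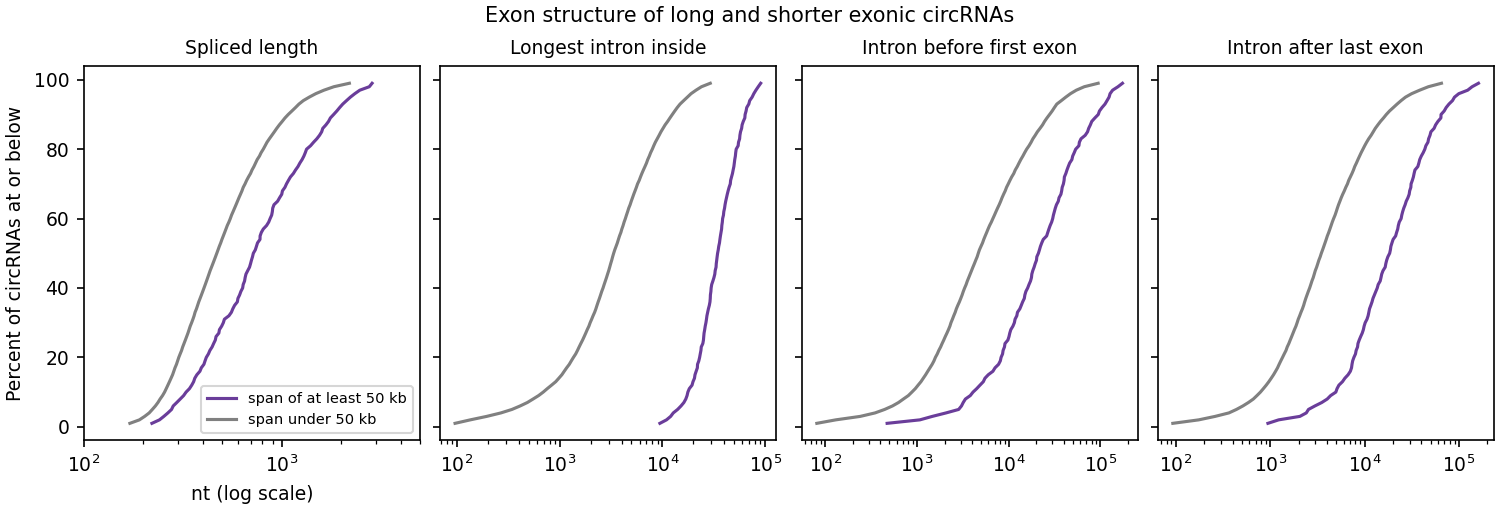
Percent of exonic circRNAs at or below a given length (log scale) for 4 lengths: spliced length, longest intron inside, intron before the first exon and intron after the last exon. Purple lines show the 493 exonic circRNAs with a span of at least 50 kb and grey lines the 17810 shorter ones. The purple line lies to the right in each panel, least in spliced length, where the medians are 719 nt for long and 470 nt for shorter ones.

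Exon 2 was the first exon of the circle in 40.0% of exonic long circRNAs (35.6 to 44.4), against 26.1% of shorter ones. Among those with at least 10 reads the shares were 60.2% (48.9 to 70.8) of long and 34.7% of shorter ones. The start codon was inside 25.0% of long and 12.6% of shorter circles. Exonic long circRNAs with at least 10 reads had a median of 5 exons and 567 nt, against 6 exons and 719 nt over all 493. Shorter circRNAs moved the same way in length, with 432 nt at 10 reads or more and 470 nt over all. Where all exons were coding, the length was a multiple of 3 nt in 42.2% of 353 long circles (37.0 to 47.6) and in 39.2% of shorter ones, which lies inside that interval. The ends did not match this pattern for all members. In 24.7% only 1 end lay on an annotated exon end and in 4.38% none did, against 11.0% and 14.2% of shorter circRNAs. A further 22 joined different transcripts of 1 gene, and through Zeb1 and Pan3 they held 13.8% of long reads. Ends on exons of different genes were found in 20 long circRNAs (2.65%) and 19 shorter ones (0.0787%), with 41 reads in the library labelled ISC, against 25 in that labelled non-ISC for the long ones.

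In most hosts of long circRNAs the leading circRNA, by reads over both libraries, was not a long one. The hosts had a median gene length of 182783 nt, over 431 hosts found among the protein-coding genes of the annotation, against 40636 nt for hosts of shorter circRNAs only, a direction that the span rule fixes. Of 2914 protein-coding genes of at least 50000 nt with a circRNA, 408 (14.0%) had a long one. Of the 458 hosts, 308 (67.2%) had exactly 1 long circRNA and 64 had at least 3. The leading circRNA of the host was long in 80 (17.5%), with ties given to the shorter circRNA. It was long in the hosts with the most long reads, Zeb1, Ncoa2, Camk4 and Tmem164. In the next hosts by long reads, Glcci1, Tasp1, Rere and Ikzf1, it was not. Most long circRNAs used an end that a shorter circRNA of the same host also used, 73.9% (70.6 to 77.0) of all and 90.3% (82.4 to 95.5) of those with at least 10 reads. Glcci1 is an example: its long circle shares its start with circRNAs of 44974 nt and 41923 nt, which had 1576 and 1345 reads in the library labelled ISC and 60 and 56 in that labelled non-ISC, far above the 170 ISC and 12 non-ISC reads of the long one.

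Of 82 hosts with at least 10 reads on long and on shorter circRNAs, 17 were higher in the library labelled ISC on both kinds and 14 lower on both. On all their circRNAs, 26.6% of 2867 host genes were called higher and 22.5% lower. A further 20 of the 82 hosts were called on neither kind, and the rest, but for the hosts named next, on 1 kind only. No host was lower on long and higher on shorter circRNAs. The reverse was found in 3 hosts. Zfand3, a zinc finger protein, had 31 long reads in the library labelled ISC, against 1 in that labelled non-ISC, but 2 ISC and 15 non-ISC shorter ones. Gsk3b had 27 ISC and 0 non-ISC long reads and 6 ISC and 16 non-ISC shorter ones, and Anks1, an ankyrin repeat protein, 14 ISC and 0 non-ISC long and 9 ISC and 24 non-ISC shorter ones. In these hosts the library labelled ISC thus held the long circle and few of the shorter ones.

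The share of a host's junction reads on its long circRNAs was compared in the 140 hosts with at least 20 reads in each library. In 5 of them (3.57%) the share was higher in the library labelled ISC and in 12 (8.57%) lower, with exact binomial intervals that did not overlap. In Ncoa2 the long share was 92.0% of 314 reads (88.5 to 94.8) in the library labelled ISC and 51.5% of 171 reads (43.7 to 59.2) in that labelled non-ISC. Its long circRNAs had 289 ISC and 88 non-ISC reads and its shorter ones 25 ISC and 83 non-ISC reads. Anks1 had 60.9% in ISC and 0% in non-ISC, Ralgps1 23.0% in ISC and 0% in non-ISC, Atxn7 19.0% in ISC and 4.58% in non-ISC, and Atp9b, a P4-type ATPase, 7.48% in ISC and 0.658% in non-ISC. Foxn3 differed most in the other direction, with 1.30% of 77 reads (0.0329 to 7.02) in the library labelled ISC and 52.7% of 74 reads (40.7 to 64.4) in that labelled non-ISC. Its shorter circRNAs were present in both, with 76 ISC and 35 non-ISC reads, a ratio of 1.06 (0.700 to 1.63), so the host as such was not missing from the library labelled ISC. Tmem164 had 51.7% in ISC and 77.3% in non-ISC, Fut8 24.6% in ISC and 47.0% in non-ISC, and Cpq 66.7% in ISC and 100% in non-ISC. Also lower were Smg6, an endonuclease of nonsense-mediated decay (8.70% in ISC and 45.5% in non-ISC), Eri3 (6.19% in ISC and 29.3% in non-ISC), Tasp1 (15.5% in ISC and 28.0% in non-ISC), Vwa8 (0% in ISC and 20.7% in non-ISC), the calcium channel gene Itpr2 (2.16% in ISC and 19.4% in non-ISC), Rere (7.11% in ISC and 16.9% in non-ISC) and the sorting nexin Snx27 (0% in ISC and 15.4% in non-ISC). These shares do not depend on how the libraries are scaled to each other.

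**Figure D5:**
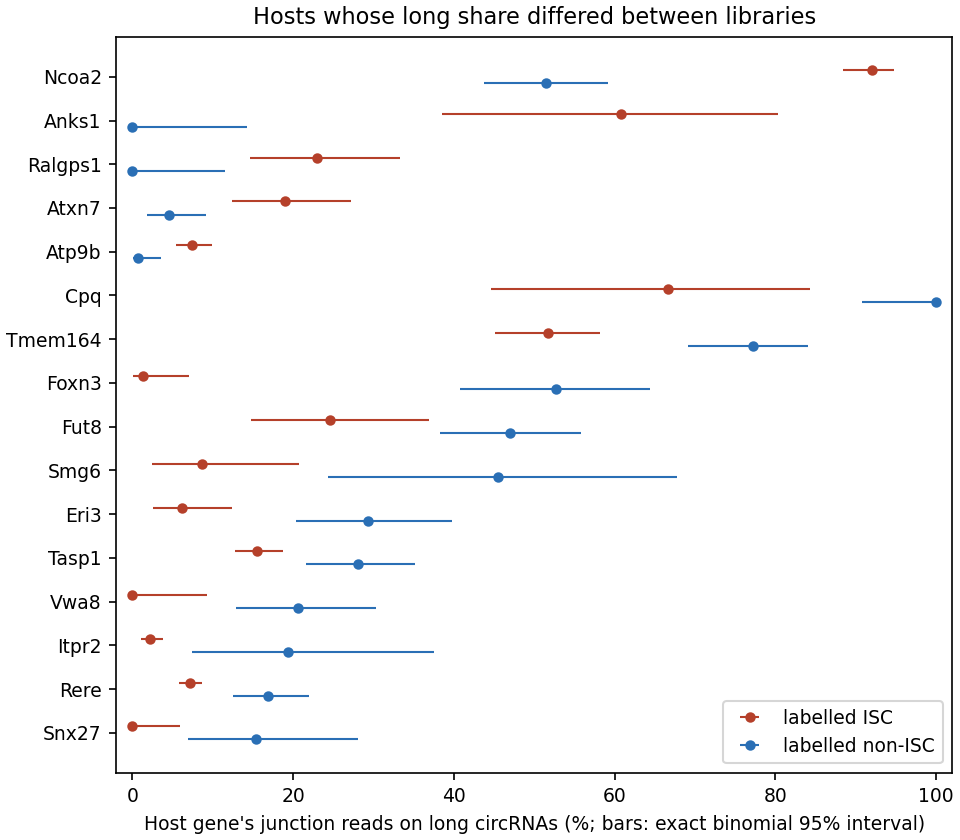
Percent of a host gene's junction reads that lie on its long circRNAs, in the library labelled ISC (red) and labelled non-ISC (blue), with exact binomial 95% intervals. Shown are 16 of the 140 hosts, all with intervals that do not overlap, 5 with the higher share in the library labelled ISC at the top and 11 with the lower share under them. Ncoa2 (92.0% in ISC and 51.5% in non-ISC) and Foxn3 (1.30% in ISC and 52.7% in non-ISC) differ between the libraries in opposite directions.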

How the data were processed

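The authors deposited 1 list of circRNAs per library, with position, host gene and 3 values. The values are, per the file headers, a read count, its RPM and a count of junction reads. The deposited RPM is the count per 1000000 reads, and it implies totals of 52636694 (ISC) and 72271995 (non-ISC) reads. The sources used here name no aligner or circRNA caller. Per the labels' protocols, ribosomal RNA was removed, linear RNA was digested with RNase R, and fragments of about 200 bp were read for 150 nt from both ends. Trimmomatic 0.36, FastQC and mm9 are named in the submitters' processing notes. Starts lay on exon starts of GENCODE M21 for 79.4% (ISC) and 81.1% (non-ISC) of circRNAs and for at most 0.246% when shifted by 1 nt, so positions are given as GRCm38, counted from 1. Exons are numbered in a basic protein-coding transcript that has both ends, the lowest by name.

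Here junction reads, which count 1 junction per circle whatever its length, were divided by each library's junction total. A missing entry was counted as 0. Ratios have exact conditional (Clopper-Pearson) and shares exact binomial 95% intervals, and intervals and floors cover counting error only. Both mates of a pair may cross 1 junction, and reads carry no molecular identifiers. Named are the 10 most abundant members of each library, the 10 called members furthest from an equal share in each direction, the longest, the hosts with the most members, Pan3, members next to the minimum span and the 3 leading hosts of each of 10 role lists. Some named genes and 1 list are not reported here. Other names were picked after their values were seen. The members, the lists and the markers were chosen with earlier results of these data known. The call rule was tested on simulated data. Alternatives were other spans, scalings, read minimums and end rules, halved reads and the count column. Python 3.11.15, NumPy 2.4.6, pandas 2.3.3, SciPy 1.17.1 and Matplotlib 3.10.9 were used.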

Additional observations from a re-analysis of the deposited data

Results flagged for a closer look

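Values outside the junction reads of named hosts were picked out because they show signal in data that the report does not use. Long circRNAs with no named host gene, or with a FANTOM transcript as host, had 67 junction reads on 21 circRNAs in the library labelled ISC and 37 reads on 13 circRNAs in the library labelled non-ISC, above the 3 reads that a count of 0 allows. In the list labelled non-ISC, 189 long entries had 0 junction reads but 19344 reads in the authors' count column, with up to 1581 on a single entry. The list labelled ISC had no such entries.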

How the results depend on the processing

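No paired analysis was possible because each group has 1 library. Of 73 values over all members recomputed under alternatives, 22 stayed close to those reported, 49 moved and 2 reversed. The limits are those of depth, of calls that set reads against a missing entry, and of scaling, since library totals shift every log2 ratio by 1.49 and the median ratio by 0.30. The cause was not tested unless stated.

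The summed ratio reversed to 0.638 at a minimum of 75000 nt and to 0.894 without Zeb1, both chosen after seeing the data. It was 1.64 at 40000 nt, where Glcci1 adds 2 abundant circles, 2.64 with the count column, 3.02 with library totals, 1.32 with the median ratio and 1.14 over members in both libraries. A minimum of 100000 nt gave no value, since the lists hold no such entry.

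At 40000 nt, the values were 762 (ISC) and 592 (non-ISC) members (164 in both), 4.30% (ISC) and 5.16% (non-ISC) of circRNAs and 5.55% (ISC) and 3.41% (non-ISC) of reads, with 64 higher and 41 lower. At 75000 nt they were 132 (ISC) and 124 (non-ISC) members (31 in both), 0.745% (ISC) and 1.08% (non-ISC) of circRNAs and 0.436% (ISC) and 0.688% (non-ISC) of reads, with 5 higher and 5 lower. With both ends on 1 transcript there were 301 members labelled ISC, 2.28% (ISC) and 3.02% (non-ISC) of circRNAs, and 1.84% (ISC) and 2.06% (non-ISC) of reads, so that the order of the libraries by reads turned. With the count column the read shares were 5.61% (ISC) and 5.42% (non-ISC) among circRNAs with junction reads and a named host. Its ratios and calls were scaled to count totals over all entries, with 213 higher and 174 lower. With at least 10 reads, 2.34% of circRNAs labelled non-ISC were long and 61.3% of long circRNAs were shared.

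Calls of circRNAs were 46 higher and 10 lower with library totals, 17 higher and 7 lower with halved reads, as if both mates were counted, 6 higher and 17 lower over members in both libraries, 17 higher and 9 lower at 20 reads, 58 lower at 5 reads and 85 lower with no minimum. Calls of hosts were 39 higher and 17 lower with library totals, 15 higher and 10 lower with halved reads, 15 higher and 13 lower at 20 reads and 52 lower at 5 reads. With library totals Tmem164 (1.85), Tasp1 (1.93), Stau2 (1.01), Foxp1 (1.65, 99435216 to 99514858) and Rere (1.83, exons 4 to 10) turned direction, and with the count column Ncoa2 (0.628) and Rere (0.821, exons 2 to 7). Of 41 named members tested, 13 lost their call with halved reads, 7 with library totals, besides Stau2, and 2 with the count column.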

Other observations

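A few long circRNAs reach across other genes. In 18 of the 754 (2.39%, 1.42 to 3.75) a whole other protein-coding gene lay between the ends, and these had 6 reads in the library labelled ISC, against 19 in that labelled non-ISC. The hosts Zeb1 and Camk4 put 950 long-circRNA reads on chromosome 18 in the library labelled ISC, counted with its other hosts, against 29 in the library labelled non-ISC. Chromosome 12, with Fut8 and Foxn3, had 73 reads in the library labelled ISC, against 173 in that labelled non-ISC. Only long circRNAs were found in 36 hosts (7.86%). The count column equalled the junction count for 31.7% of long and 43.0% of shorter circRNAs in the library labelled ISC and for 43.4% of long and 51.5% of shorter ones in that labelled non-ISC.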
